A study of Mus musculus with 7 samples.

Results

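The iron handling genes are 10 genes chosen for their place in the path that iron takes through a cell: Trf, Tfrc, Fth1, Ftl1, Slc11a2, Slc40a1, Heph, Cp, Steap3 and Ireb2. They were matched by symbol, all 10 were found among the 49315 gene identifiers of the count files, and all 10 passed the filter on low counts that left 18352 genes for testing. The libraries came from oligodendroglial precursors of newborn mice of both sexes, which were purified from mixed glial cultures of the brain by shake-off and microglia depletion and then kept for 6 days in SATO medium with the thyroid hormones T3 and T4 to differentiate. The 4 control libraries were prepared from wildtype mice. The 3 Klf13 knockout libraries were prepared from mice in which the zinc finger transcription factor KLF13 was deleted constitutively, in every cell type and throughout development, so that cells other than oligodendroglia in these cultures lacked it as well. All libraries were labelled as biological replicates of a group and were made from cultures that had received the same media. The comparison asked which transcripts depend on KLF13 in differentiating oligodendroglia.

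Iron circulates bound to transferrin, the product of Trf, and enters cells when transferrin binds its receptor, the product of Tfrc, and is taken into endosomes. There the ferrireductase STEAP3 reduces the iron and the divalent metal transporter encoded by Slc11a2 carries it into the cytosol. Surplus iron is stored in ferritin, a shell of heavy chains (Fth1), which oxidize iron, and light chains (Ftl1), which help to lay it down as mineral. Iron leaves the cell through ferroportin (Slc40a1) and is oxidized on the outside by the multicopper ferroxidases hephaestin (Heph) and ceruloplasmin (Cp). Ireb2 encodes IRP2, an RNA-binding protein that holds on to hairpins called iron-responsive elements when iron is scarce, which blocks translation when the hairpin lies in a 5′ UTR and protects the transcript from decay when it lies in a 3′ UTR. Oligodendrocytes are the cells of the brain that stain most strongly for iron and are a main source of its transferrin transcripts, and enzymes of lipid and cholesterol synthesis in these myelin-forming cells need iron.

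Klf13 itself was at 10915, 11769, 11999.5 and 10669.9 normalized counts in the controls, as against 802, 876 and 961 in the knockouts, so that each library matched its label (log2 fold change −3.69 ± 0.09 (SE), adjusted p = 6.77e-06 by the quasi-likelihood test of edgeR). Normalized counts are counts scaled to library size by the TMM method, and fold changes are knockout against control throughout. The total of counts on genes ranged from 24507471 to 59596479 per library. The genes Gm42418, Gm23935 and Lars2 together held 14.1, 6.03, 6.50 and 15.0% of the counts in control replicates 1 to 4. In knockout replicates 1 to 3 they held 17.0, 7.56 and 18.0%, so that libraries of both groups differed in this share. Of the genes tested, 12.2% were lower and 11.6% higher in the knockout with an adjusted p that did not exceed 0.05. All 12 markers of mature oligodendrocytes fell. Their summed level was 25594 to 29271 CPM (counts relative to TMM-scaled library size) in controls and 7284 to 8372 CPM in knockouts. Mbp and Cnp were among the highest of them, with log2 fold changes of −1.78 and −0.96. The precursor markers Gpr17, Ptprz1 and Pdgfra were abundant in both groups and 2 of 10 markers on that list rose. In astrocyte markers, 9 of 12 rose (3558 to 4122 CPM in controls, 5461 to 6189 CPM in knockouts), and so did 10 of 12 neuron markers (193 to 426 CPM against 927 to 1238 CPM), among them Dcx. These RNAs came from whole cultures, so that fewer cells of a type and less RNA per cell cannot be told apart in anything that follows.

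The iron-responsive elements are shown first, because they mark the members whose transcripts iron is known to control through a UTR. The UTRs of the coding transcripts in GENCODE M21 (genome build GRCm38) were searched for the loop CAGTGN, closed by a stem of 5 base pairs of which at least 4 had to pair, with an unpaired C on the 5′ side of that stem. A match was found in 5 of the 10 members and in 870 of 21901 coding genes (3.97%). Of the coding genes, 0.781% had a match in a 5′ UTR and 3.2% in a 3′ UTR. The sequences below run 5′ to 3′ on the strand of the transcript, and capitals mark the 6 bases of the loop. In the 5′ UTR, matches were found in both ferritin chains (Fth1 at chr19:9982732-9982760, plus strand, and Ftl1 at chr7:45459779-45459807, minus strand) and in ferroportin (Slc40a1 at chr1:45925465-45925493, minus strand).
Fth1, 5′ UTR: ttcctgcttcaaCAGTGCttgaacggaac
Ftl1, 5′ UTR: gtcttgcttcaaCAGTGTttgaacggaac
Slc40a1, 5′ UTR: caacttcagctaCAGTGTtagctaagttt

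In the 3′ UTR, the transferrin receptor gene Tfrc held 4 matches within a short stretch on the plus strand of chromosome 16 (chr16:32631219-32631247, chr16:32631598-32631626, chr16:32631663-32631691 and chr16:32631710-32631738). The 4 hairpins have different stems. Slc11a2 held 1 match in the 3′ UTR of 1 of its 6 coding transcripts (chr15:100395153-100395181, minus strand), in which 4 of the 5 stem pairs formed.
Tfrc, 3′ UTR, match 1: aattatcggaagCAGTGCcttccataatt
Tfrc, 3′ UTR, match 2: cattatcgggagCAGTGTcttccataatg
Tfrc, 3′ UTR, match 3: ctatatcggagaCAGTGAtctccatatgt
Tfrc, 3′ UTR, match 4: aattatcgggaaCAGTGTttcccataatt
Slc11a2, 3′ UTR: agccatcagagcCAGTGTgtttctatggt

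No match of this kind was found in the UTRs of Trf, Steap3, Heph, Cp and Ireb2, which says only that these letters are not in these windows.

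Trf, Steap3, Slc11a2 and Tfrc, which act in the uptake of transferrin-bound iron, fell in the knockout (adjusted p of at most 0.05). The other 6 members did not pass the test, and whether members of different roles differ in their response was not tested. The value of Fth1 (−0.30) was as large as those of Tfrc (−0.29) and Slc11a2 (−0.31) on the log2 scale but had a larger standard error (0.28 against 0.08 and 0.07). No member rose, so that 4 of 10 members were lower, where 12.2% of all genes tested were. Among all genes, 23.8% were called in either direction. At the threshold that the study set for a changed gene, which adds to this a log2 fold change of 1 or more in size, 2 members remained (Trf and Steap3), while 3.08% of all genes were lower and 3.97% higher by that rule. The libraries of both groups did not overlap in 4 members that were lower in the knockout and in 1 (Heph) that was higher. Among all genes tested, 36.2% were separated in this way, 18.0% with the knockout lower and 18.3% with the knockout higher. The median log2 fold change of the members was −0.19, with 8 negative and 2 positive values, and that of all genes tested was −0.0037. When knockout replicate 1 or knockout replicate 2 was left out, 2 members passed the test instead of 4, namely Trf and Steap3.

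**Figure D1:**
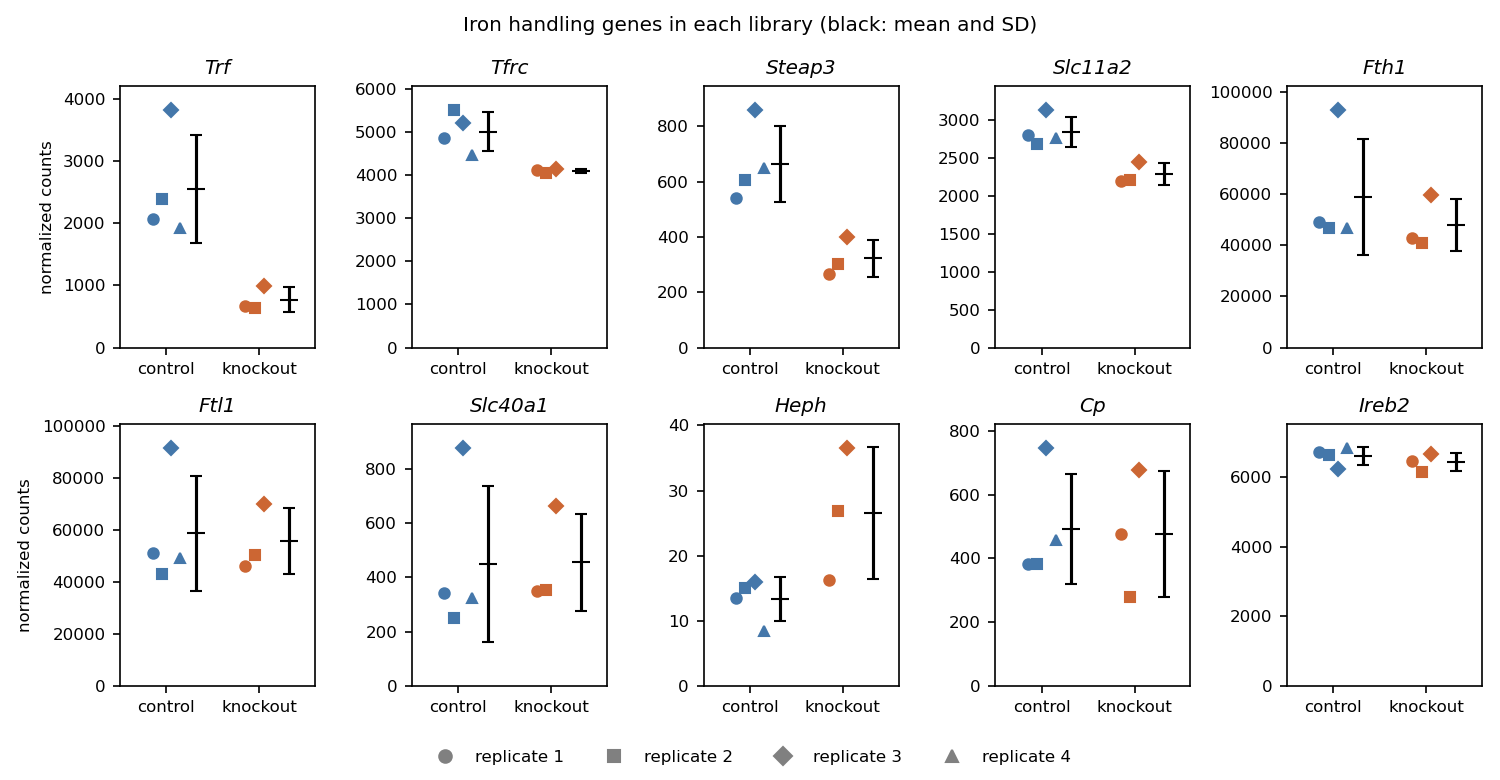
Normalized counts of each of the 10 iron handling genes, on linear axes that start at 0, with 1 point per library (the symbol gives the replicate), controls (n = 4) beside Klf13 knockouts (n = 3), and the mean and SD in black. In Trf, Steap3, Slc11a2 and Tfrc every knockout point lies below every control point, in Heph every knockout point lies above, and replicate 3 is the highest point of both groups for all members except Tfrc and Ireb2.

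Trf, which encodes transferrin, showed the strongest decrease. Its normalized counts were 2073, 2382, 3822 and 1927 across control replicates 1 to 4, against 672, 643 and 995 across knockout replicates 1 to 3. The highest knockout library thus stayed well below the lowest control library, although control replicate 3 stood above the other controls. Mean levels were 2551 ± 868 (SD, n = 4) in the controls and 769.9 ± 196 (SD, n = 3) in the knockouts, or 30.2% of the control level. The log2 fold change was −1.72 ± 0.28 (SE), with a 95% interval from −2.39 to −1.06 (adjusted p = 0.00645, edgeR's quasi-likelihood test). Markers of mature oligodendrocytes, the main site of Trf transcription in brain, fell in the same libraries in 12 of 12 cases (median log2 fold change −2.80) and none of the 12 was at 0. Choroid plexus epithelium also transcribes Trf, and the joint list of ependymal and choroid plexus markers summed to 10.9 to 19.2 CPM in the controls and 16.7 to 25.2 CPM in the knockouts, with 0 of 6 tested markers passing in either direction. The part of these cell types in the decrease of Trf was not tested.

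Trf lies on the minus strand of chromosome 9 (chr9:103204001-103230444). Of its 3320 exon bases, 2108 (63.5%) are shared on the same strand with the annotated gene Gm20425, to which 2 counts were assigned over all 7 libraries. Reads in shared exons were thus not counted for both genes, as Gm20425 would otherwise hold many more. Whether they were counted for neither gene is not stated in the sources used here. If so, Trf was measured on the remaining 1212 bases, which bears on its level per length.

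Transferrin-bound iron is taken up through the transferrin receptor, and the change in Tfrc was small. In the controls, Tfrc (chr16:32608920-32632794, plus strand) was at 4857, 5524, 5218 and 4476 normalized counts, compared with 4127, 4043 and 4137 in the knockouts. The knockout libraries lay close together and just under the lowest control. Means were 5019 ± 453 (SD, n = 4) and 4102 ± 51.6 (SD, n = 3), which is 81.7% of the control level. The log2 fold change was −0.29 ± 0.08 (SE), with a 95% interval from −0.47 to −0.11 (adjusted p = 0.0315, edgeR's quasi-likelihood test). This call was lost when any 1 library other than control replicates 1 and 4 was left out, with adjusted p-values of 0.0559 to 0.101 in edgeR's test, and also when libraries were scaled by their total counts only (0.129).

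Steap3, the ferrireductase of the endosome, was lower in every knockout library than in any control. Normalized counts were 541, 606, 859.6 and 649.6 for the controls, compared with 267, 302 and 398 for the knockouts. From 664 ± 138 (SD, n = 4) the mean went to 323 ± 67.9 (SD, n = 3), or 48.6% of the control level. Its log2 fold change was −1.04 ± 0.20 (SE), with a 95% interval from −1.50 to −0.57 (adjusted p = 0.0109, edgeR's quasi-likelihood test). The value lies close to the study's limit of 1, and without control replicate 3, knockout replicate 1 or knockout replicate 2 it was −0.89, −0.91 and −0.99, so that Steap3 then passed the test but not the limit on size. Steap3 is located on the minus strand of chromosome 1 (chr1:120190757-120272705).

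Slc11a2, which encodes the transporter that moves the reduced iron out of the endosome, was lower by a margin similar to that of Tfrc. Controls had 2792, 2677, 3128 and 2754 normalized counts, knockouts 2190.0, 2209 and 2445. Even the highest knockout library stayed below the lowest control. Means were 2838 ± 199.6 (SD, n = 4) and 2281 ± 142 (SD, n = 3), or 80.4% of the control level. The log2 fold change was −0.31 ± 0.07 (SE), with a 95% interval from −0.49 to −0.14 (adjusted p = 0.0214, edgeR's quasi-likelihood test). The call was lost without control replicate 1, control replicate 4, knockout replicate 1 or knockout replicate 2 (adjusted p-values of 0.0580 to 0.109). The gene spans chr15:100387898-100425072, and 402 of its 6354 exon bases (6.33%) overlap Gm5475 on the opposite strand, which held 44 counts in all libraries.

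The ferritin transcripts were by far the most abundant of the members, and neither chain passed the test. For Fth1 (chr19:9982703-9985092), normalized counts were 49057, 46771, 93173 and 46840.3 among controls, against 43098, 40906 and 59632 among knockouts. Control replicate 3 stood far above the other controls, and the groups overlapped. Its log2 fold change was −0.30 ± 0.28 (SE) with a 95% interval from −0.96 to 0.36 (adjusted p = 0.498, edgeR's quasi-likelihood test). Ftl1 (chr7:45457944-45459884) was at 51240.3, 43106, 91629 and 49026 normalized counts among controls, against 46158, 50499 and 70091 among knockouts. The same control library stood apart here, and the knockout libraries fell within the range of the controls. Its log2 fold change was −0.08 ± 0.28 (SE) with a 95% interval from −0.74 to 0.58 (adjusted p = 0.871, edgeR's quasi-likelihood test). Without control replicate 3, the log2 fold changes were 0.01 for Fth1 and 0.22 for Ftl1, again without passing the test. Among libraries matched by replicate number, Fth1 was lower in the knockout in 3 of 3 pairs and Ftl1 in 2 of 3. The labels do not state that these numbers pair the libraries. With the replicate number as a block, the log2 fold change of Fth1 was −0.34 ± 0.11 (SE), with an adjusted p of 0.0954 by edgeR's quasi-likelihood test.

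Because both ferritin chains moved together between libraries, their ratio was more even than either level. The ratio of Fth1 to Ftl1 counts was 0.957, 1.09, 1.02 and 0.955 among controls, compared with 0.934, 0.810 and 0.851 among knockouts. All knockout ratios were below all control ratios, although the highest knockout and the lowest control lay close together. On the log2 scale the ratio was 0.0033 ± 0.087 (SD, n = 4) in the controls and −0.21 ± 0.10 (SD, n = 3) in the knockouts, a difference of −0.22. The two-sided exact permutation test gave p = 0.0571, the smallest value that 4 against 3 libraries allow, so that this test could not reach 0.05. Paired by replicate number, the ratio was lower in the knockout in 3 of 3 pairs. Ftl1 has 5 near-identical copies elsewhere in the count files (at least 95% identity over at least 150 bases) which together held 1995 counts, 0.493% of those of Ftl1, and 355 of its 1340 exon bases (26.5%) lie opposite to Gm10252, which held 869 counts. Adding the Ftl1 pseudogenes to Ftl1 gave a difference of −0.21.

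Of the members that act in export, none passed the test. Slc40a1, which encodes ferroportin (chr1:45908068-45926523), was at 343, 250.4, 879 and 325 normalized counts among controls, against 350.3, 355 and 663 among knockouts. Replicate 3 was the high library in each group, and the groups overlapped. The log2 fold change was 0.03 ± 0.47 (SE), with a 95% interval from −1.06 to 1.12 (adjusted p = 0.975, edgeR's quasi-likelihood test). With the replicate number as a block the log2 fold change was 0.03 ± 0.19 (SE), and with both replicates 3 left out it was 0.20 ± 0.17 (SE), again without passing the test.

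Among the ferroxidases, Cp (ceruloplasmin, chr3:19957054-20009145) was clearly detected and Heph (hephaestin, chrX:96455359-96574485) was close to the limit of detection. Cp was at 381, 381, 746 and 459 normalized counts among controls and 475, 279 and 676 among knockouts, with overlapping groups. Its log2 fold change was −0.05 ± 0.35 (SE), with a 95% interval from −0.86 to 0.77 (adjusted p = 0.941, edgeR's quasi-likelihood test). Raw counts of Heph were 10, 15, 14 and 9 among controls and 9, 39 and 48 among knockouts, or 144 in all. Scaled to library size these were 13.5, 15.1, 16.0 and 8.42 against 16.2, 26.8 and 36.6 normalized counts, so that all knockout libraries lay above all controls, by the narrowest of margins in knockout replicate 1. The log2 fold change was 1.05 ± 0.35 (SE), with a 95% interval from 0.23 to 1.87 (unadjusted p = 0.0190, adjusted p = 0.0689, edgeR's quasi-likelihood test). Heph was the member with the highest positive value and the lowest counts.

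Ireb2 (chr9:54863789-54912530), which encodes the sensor IRP2, had the smallest standard error of all members. Controls had 6727, 6649, 6227 and 6842 normalized counts, knockouts 6462, 6155 and 6665. The groups overlapped, and the means of 6611 ± 268 (SD, n = 4) and 6427 ± 256 (SD, n = 3) differed by less than 1 SD. The log2 fold change was −0.04 ± 0.06 (SE) with a 95% interval from −0.17 to 0.09 (adjusted p = 0.650, edgeR's quasi-likelihood test). Aco1, which encodes the other iron regulatory protein IRP1, was at 4558 ± 114 (SD, n = 4) and 4488 ± 180.4 (SD, n = 3) normalized counts (log2 fold change −0.02 ± 0.05 (SE), adjusted p = 0.791, edgeR's quasi-likelihood test). It was named after its values were seen. Transcript levels say nothing about the activity of either protein, which iron controls after transcription.

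**Figure D2:**
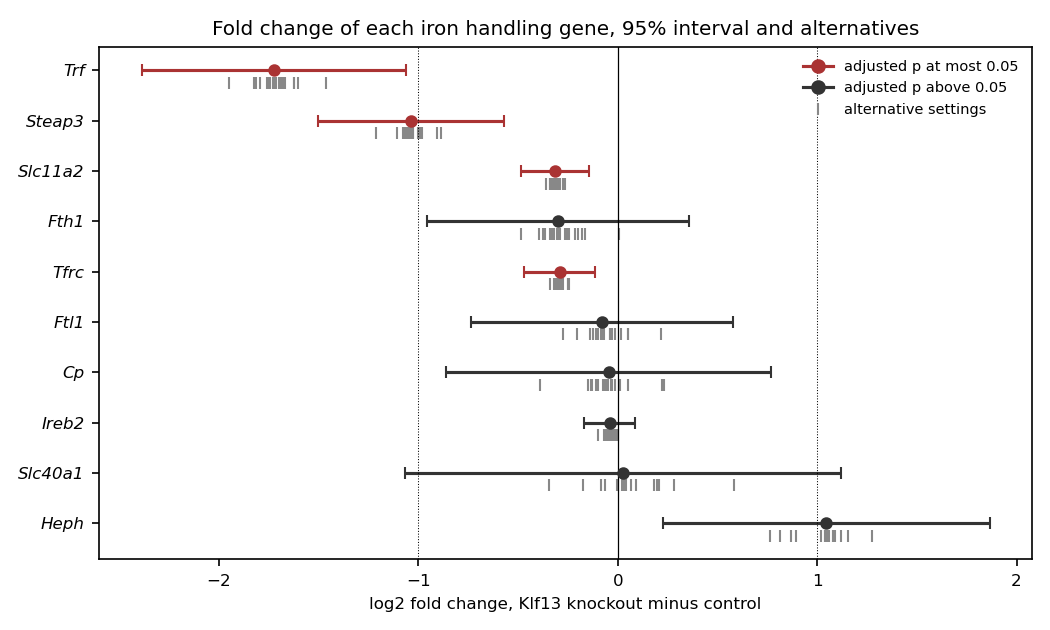
Log2 fold change (knockout minus control) of each iron handling gene with its 95% interval, red where the adjusted p was at most 0.05, and with the values under the alternative settings as grey ticks under it. Trf stays between −1.95 and −1.46 and Steap3 between −1.21 and −0.89 in every setting, whereas ticks lie on both sides of 0 for Fth1, Ftl1, Cp, Slc40a1 and Ireb2.

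To compare levels between genes, TMM-normalized CPM were divided by exon length in kilobases. On this scale, Fth1 (1549 ± 600.0, SD, n = 4) and Ftl1 (998 ± 377) led in the controls. The ranges of both chains overlapped, yet Fth1 was above Ftl1 in each of the 7 libraries. That order rests on the exon lengths used (866 and 1340 bases). By counts, Ftl1 was above Fth1 in all knockout libraries and in control replicates 1 and 4, and below it in control replicates 2 and 3. A wide gap separated ferritin from the next group, with Tfrc at 18.5 ± 1.67, Trf at 17.5 ± 5.95 and Ireb2 at 15.9 ± 0.643, whose ranges overlapped with their neighbours. Slc11a2 followed at 10.2 ± 0.715 and Steap3 at 2.64 ± 0.548, each apart from its neighbours. Cp (1.17 ± 0.413) and Slc40a1 (1.14 ± 0.731) could not be ordered, and Heph came last at 0.0394.

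In the knockouts, ferritin again led and Heph again came last, but Trf changed its place. By its full exon length it moved from a level near that of its receptor to 5.28 ± 1.34 (SD, n = 3). That lay below Slc11a2 at 8.17 ± 0.509 and above Steap3 at 1.28 ± 0.27, with no overlap with either. Ireb2 (15.4 ± 0.616) and Tfrc (15.1 ± 0.19) overlapped, as did Steap3, Slc40a1 (1.15 ± 0.454) and Cp (1.13 ± 0.472). If only the 1212 exon bases that Trf does not share are taken as its length, its levels would be 47.9 in the controls and 14.5 in the knockouts. Trf would then lie above Tfrc (18.5) in the controls, and near Tfrc and above Slc11a2 in the knockouts. Its place relative to other genes therefore depends on the length used, while its ratio between the groups is the same for either length.

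**Figure D3:**
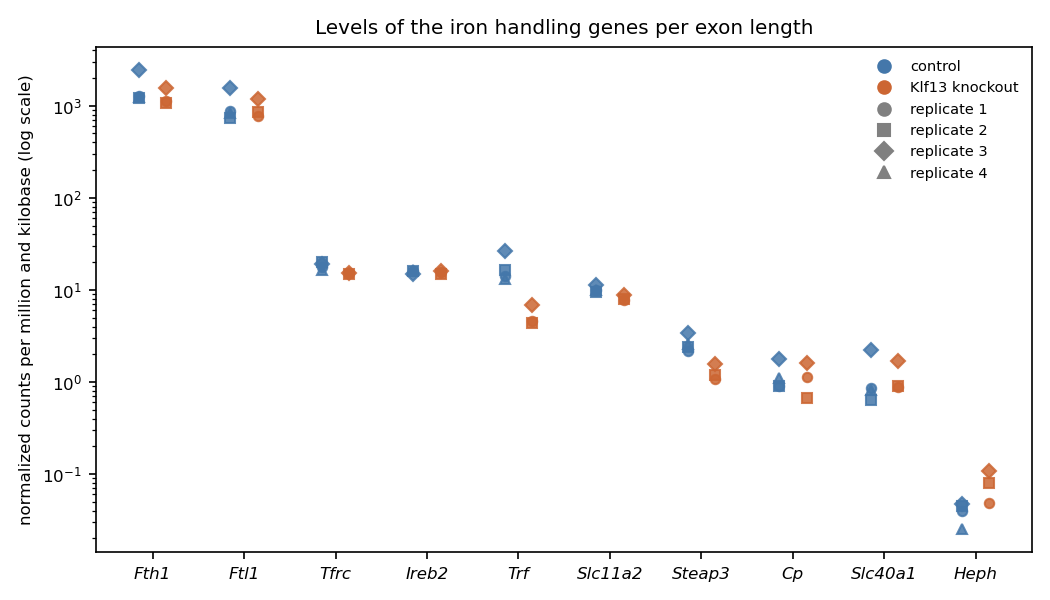
Level of each iron handling gene per length (TMM-normalized CPM per kilobase of exon, log axis), with 1 point per library, coloured by group and shaped by replicate, ordered by the mean of all 7 libraries. Fth1 and Ftl1 lie far above the rest, Heph lies below 0.11, and Trf, plotted by its full exon length, drops from the level of Tfrc to below Slc11a2.

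The spread within the groups was itself uneven between members. Control replicate 3 held 1.96 times the mean of the other controls for Fth1, 1.92 times for Ftl1, 2.87 times for Slc40a1, 1.83 times for Cp and 1.80 times for Trf. In knockout replicate 3 the same genes held 1.42, 1.45, 1.88, 1.79 and 1.51 times the mean of the other knockouts. Steap3 showed a lesser elevation (1.43 and 1.40 times), and Tfrc (1.05 and 1.01 times), Slc11a2 (1.14 and 1.11 times) and Ireb2 (0.924 and 1.06 times) varied little. Heme oxygenase 1 (Hmox1), which frees iron from heme, was also higher in both libraries (2.18 and 1.43 times).

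Markers of microglia and macrophages, cells rich in ferritin and ferroportin, were highest in the same libraries. Their summed level was 827, 684, 2978 and 767 CPM across control replicates 1 to 4, and 707, 819 and 1441 CPM across knockout replicates 1 to 3. Control replicate 3 thus held 3.92 times the mean of the other controls and knockout replicate 3 held 1.89 times that of the other knockouts. C1qa and C1qb were among the most abundant markers on the list, and no marker was at 0. All 15 markers had a negative log2 fold change (median −0.41), and 0 of 15 passed the test between the genotypes in either direction. The part of these cells in the spread of the ferritin and ferroportin transcripts was not tested. Fibroblast and mural cell markers, led by Col1a1, Col1a2 and Acta2, summed to 319, 258, 1132 and 866 CPM across control replicates 1 to 4 and to 204, 117 and 266 CPM across knockout replicates 1 to 3. Of 7 tested markers on that list, 1 fell and none rose (median log2 fold change −1.84), and the part of these cells in any result was not tested.

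The decreases of Trf and Steap3 were of similar size without these libraries. With both replicates 3 left out, Trf had a log2 fold change of −1.70 ± 0.11 (SE, adjusted p = 0.00163), and Steap3 one of −1.07 ± 0.13 (SE, adjusted p = 0.00905, both by edgeR's quasi-likelihood test). Slc11a2 kept its call (−0.32, adjusted p = 0.0277, edgeR's test) and Tfrc did not (−0.28, adjusted p = 0.113, edgeR's test), so that 3 of 10 members passed. With the log2 summed microglia level as a covariate instead, 4 of 10 members passed, with Trf at −1.63, Steap3 at −0.98, Slc11a2 at −0.29 and Tfrc at −0.29. Both settings were chosen after the data had been seen.

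**Figure D4:**
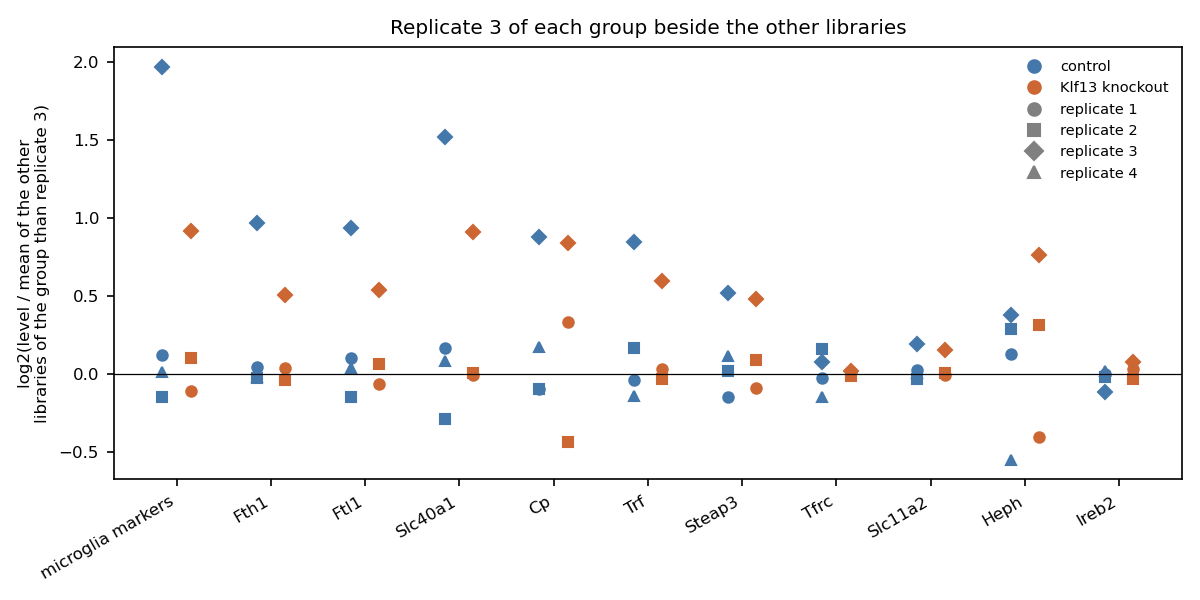
Log2 of the level in each library divided by the mean of its group without replicate 3 (vertical axis), for the summed microglia and macrophage markers and each iron handling gene, coloured by group and shaped by replicate. The replicates 3 (diamonds) stand above all other libraries of their group for the markers, both ferritins, Slc40a1, Cp, Trf and Steap3, and lie near 0 for Tfrc and Ireb2.

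Around the members, 103 further iron genes were listed by role, of which 93 could be tested. Of these, 8 fell and 13 rose with an adjusted p that did not exceed 0.05 (22.6% in either direction, where 23.8% of all genes tested were called), and 72 did not pass. Their median log2 fold change was −0.01. The balance of directions depended on the settings, with 13 lower and 11 higher by the Wald test of DESeq2, and 12 lower and 11 higher when Gm42418, Gm23935 and Lars2 were left out of the library sizes. Without knockout replicate 1 or without knockout replicate 2, 9 of them passed.

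At the study's threshold, 2 of these genes changed, 1 in each direction, where 7.05% of all genes did. Cpox, which encodes a late enzyme of heme synthesis in mitochondria (coproporphyrinogen oxidase), was at 3559, 4864, 4812 and 4161 normalized counts among controls, against 1872, 1983 and 1649.7 among knockouts. The groups were far apart, with a log2 fold change of −1.25 ± 0.13 (SE, adjusted p = 0.000895, edgeR's quasi-likelihood test). Pcbp3, a relative of the poly(rC)-binding proteins that deliver iron to ferritin, was at 1207, 1392, 879 and 726 normalized counts among controls, against 3383, 4037 and 3108 among knockouts. Here every knockout library was above every control by a wide margin (log2 fold change 1.74 ± 0.22 (SE), adjusted p = 0.00264, edgeR's quasi-likelihood test). The iron chaperones of the same family for which that role is established, Pcbp1 and Pcbp2, were more abundant and did not pass (log2 fold changes −0.07 and 0.04).

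In the list of iron uptake and receptors, 2 of 14 tested genes fell and 1 rose, beside 12.2% and 11.6% of all genes tested. Slc22a17, which encodes a receptor for the siderophore carrier lipocalin 2, was the most abundant in the controls. It fell from 24557 ± 2292 (SD, n = 4) to 16461 ± 2927 (SD, n = 3) normalized counts (log2 fold change −0.58, adjusted p = 0.0187, edgeR's quasi-likelihood test). Lrp1, an endocytic receptor that takes up heme bound to hemopexin, was above Slc22a17 in the knockouts, at a mean of 23364 normalized counts. Lrp1 did not pass (log2 fold change 0.30, adjusted p = 0.117, edgeR's quasi-likelihood test). The others that changed were the lysosomal channel gene Mcoln1 (−0.41) and the ferrireductase gene Cybrd1 (0.65), both named after their values were seen.

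Genes for systemic control of iron showed 3 increases among 9 tested, in Bmpr1a (0.21), Acvr1 (0.41) and Smad4 (0.15), which belong to BMP signalling and were named after their values were seen. Among all genes tested, 11.6% rose. The most abundant on that list in the controls, Neo1 and Bmpr2, did not pass, with log2 fold changes of −0.25 and −0.03. In the list of sensing and hypoxia control, 1 of 10 genes fell and 2 rose, where 23.8% of all genes were called either way. Fbxl5, the iron-sensing subunit of the ligase that marks IRP2 for degradation, fell by 0.24 on the log2 scale, and Epas1 (0.44) and Vhl (0.19) of the hypoxia response rose, again named after their values were seen. Hif1a (−0.24) and Herc2 (−0.06) were the most abundant and did not pass.

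For mitochondrial iron and iron-sulfur clusters, 3 of 25 tested genes rose, among them Isca1 (0.30) and Nfu1 (0.23), both named after their values were seen, and none fell, where 11.6% of all genes tested rose. The chaperone gene Hspa9 and Ciapin1 were the most abundant and did not pass (log2 fold changes 0.0028 and −0.15). Of the heme genes, 5 of 27 fell and 3 rose, where 23.8% of all genes tested were called in either direction. Besides Cpox, the gene for the last step of synthesis, Fech (−0.42), and the transporter genes Abcb10 (−0.27), Slc48a1 (−0.59) and Abcg2 (−0.61) fell, whereas Pgrmc1 (0.67), Abcb6 (0.61) and Slc46a1 (0.76) rose. All of these except Cpox and Pgrmc1 were named after their values were seen. Hmox1, the most abundant heme gene, was at 8215 ± 3775 (SD, n = 4) and 8665 ± 1894 (SD, n = 3) normalized counts and did not pass (log2 fold change 0.08, adjusted p = 0.892, edgeR's quasi-likelihood test).

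**Figure D5:**
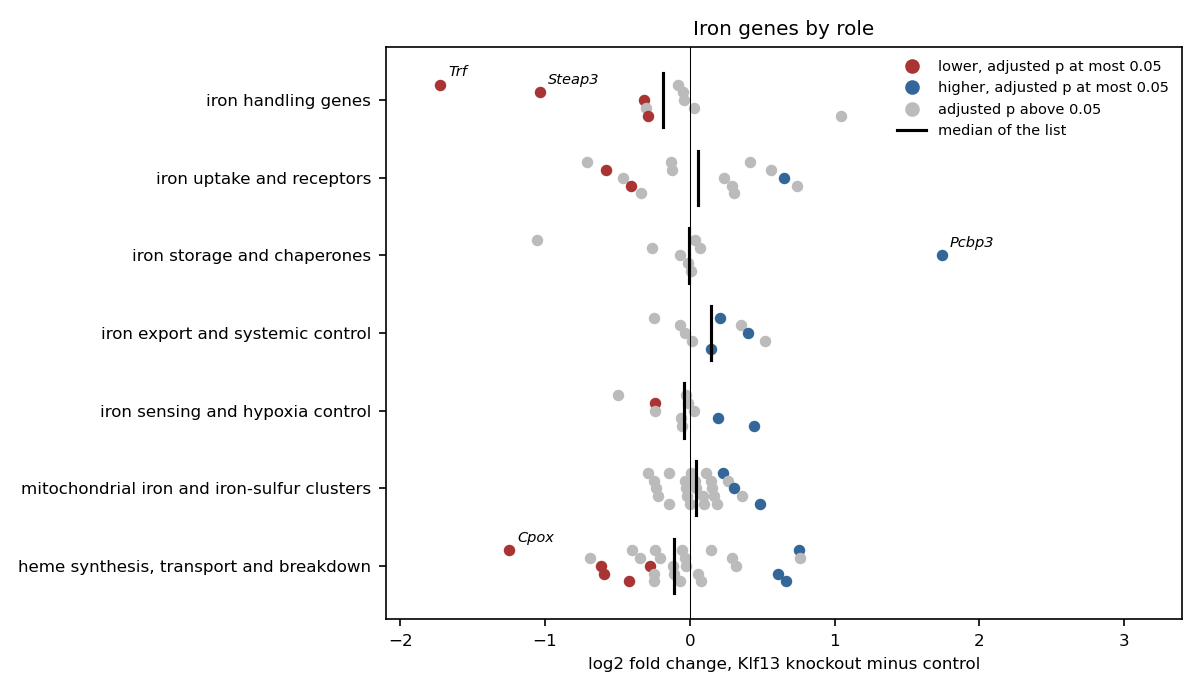
Log2 fold change (knockout minus control) of each tested gene in the members' list and in 6 further lists of iron genes, red where lower and blue where higher (adjusted p of at most 0.05), with a bar at the median of the list. The medians lie between −0.19 and 0.15, Of the coloured points, Trf, Steap3 and Cpox lie beyond −1 and Pcbp3 lies at 1.74.

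Genes whose levels followed those of Trf most closely were identified by Pearson correlation of log2 CPM over all 7 libraries. Outside the lists, the highest coefficients were those of Pip4k2a (0.997), Npc2 (0.997), Atp6ap2 (0.996), Arhgef2 (0.996) and ENSMUSG00000091562 (0.994), an identifier without a symbol in the name table used. All 5 were lower in the knockout, with log2 fold changes of −0.86, −0.74, −0.39, −0.61 and −0.94. They share with Trf both the step between the genotypes and the high value in replicates 3, since the points are the same 7 libraries, and the coefficients are given as a description only. Npc2 encodes a protein that moves cholesterol out of lysosomes, Atp6ap2 an accessory protein of the proton pump of endosomes and lysosomes, and Pip4k2a a lipid kinase.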

How the data were processed

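RNA was prepared from the cultures with an RNeasy kit, and libraries made with a NEBNext Ultra II RNA kit were sequenced as paired ends. Per the labels and the study's methods, the authors trimmed reads with Trimmomatic (0.36), mapped them with STAR (2.5.2b) to GRCm38 and counted unique hits in exons with Subread (1.5.2). The deposited values are whole-number counts per gene without normalization. The strand setting, the treatment of reads in overlapping genes and the annotation release are not given in the sources used here. Reads of near-identical copies are lost by unique mapping.

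Symbols were found for 48970 of 49315 identifiers. Counts were fitted in R (4.3.3) with edgeR (4.0.16): TMM factors, filterByExpr by group, glmQLFit (robust) and glmQLFTest with group as the only term over 18352 genes, with Benjamini-Hochberg adjustment over all of them. The study itself used DESeq2, which was run as an alternative (1.42.0), as was limma (3.58.1). Calls require an adjusted p of at most 0.05, and the study's threshold adds a log2 fold change of 1 or more in size. A count of 0 allows up to 3 counts. The stated intervals of fold changes come from edgeR's quasi-likelihood fit and include the spread between libraries. The fit was tested on simulated counts. No library pair agreed within sampling noise (lowest chi-square per degree of freedom 17.1). UTRs and exons came from GENCODE M21 (GRCm38), in which 9 of 10 members had the same start and end. Copies were searched with BLAST+ (2.17.0).

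The labels number the replicates in both groups without saying what a number shares. Deviations from the group means correlated with 0.11, 0.46 and 0.17 for libraries with the same number. For different numbers the correlations ran from −0.53 to 0.20. The values 0.11 and 0.17 lie within that range, so the correlations do not decide whether the numbers pair the libraries. The main fit did not use the numbers, and the replicate block is given as an alternative. The origin of each library from a separate litter or culture is not stated beyond the words biological replicate.

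The members and lists were chosen with earlier results of these data known. The text names all members, of the other iron genes those at the study's threshold and the 2 with the highest counts per list, of the markers the 3 with the highest counts, and the 5 genes most like Trf. Other genes are said to be named after their values were seen. Endothelial markers were also read out (1 of 5 tested lower, Cdh5). The erythroid list and some listed genes are not reported here.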

Additional observations from a re-analysis of the deposited data

Results flagged for a closer look

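Of 20 values examined over the 4 controls (the members, the marker lists and the ferritin ratio), 4 had 1 library far from the other controls, and chance alone sets apart about 1 in 20. All 4 cases were control replicate 3. Fth1 held 93173 normalized counts there, with 49057 in the nearest control. Ftl1 held 91629, with 51240.3 in the nearest control. Slc40a1 held 879, with 343 in the nearest control. The microglia and macrophage markers summed to 2978 CPM, with 827 in the nearest control. These are 2 chains of ferritin, ferroportin and a marker list, which all had the same library on top, so that the cases are not independent of each other. What sets this library apart was not tested.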

How the results depend on the processing

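Of 179 fold changes of members under 18 alternative settings, 153 kept their direction and their side of the threshold. Trf and Steap3 did so in all 18, with adjusted p-values of at most 0.0345 and 0.0487. The other 26 were 11 lost calls of Tfrc and Slc11a2, given with the genes, and 15 changes of sign in members that never passed. Ftl1 changed to 0.22 without control replicate 3, 0.05 without knockout replicate 1, 0.0152 without both replicates 3 and 0.0516 with the microglia covariate, and Fth1 to 0.0083 without control replicate 3. Slc40a1 changed to −0.0040 with library sizes that left out Gm42418, Gm23935 and Lars2, and to −0.07, −0.17, −0.08 and −0.34 without control replicates 1, 2 and 4 and knockout replicate 3. Cp changed to 0.0126 under upper quartile scaling, 0.22 without control replicate 3, 0.23 without knockout replicate 2 and 0.0522 with the covariate, and Ireb2 to 0.0025 with total counts only. Over all settings that left out 1 library, log2 fold changes ran from −0.48 to 0.0083 for Fth1, −0.28 to 0.22 for Ftl1, −0.34 to 0.58 for Slc40a1 and −0.39 to 0.23 for Cp. The cause was not tested.

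Leaving out 1 library gave 2 to 3 members at an adjusted p of at most 0.05, 1 to 2 at the study's threshold and 9 to 18 other iron genes. At the study's threshold, 1 member (Trf) was left with upper quartile scaling, total counts only or the microglia covariate, and 0 when edgeR tested against a log2 fold change of 1. With the replicate number as a block, 4 members passed, 2 of them at the study's threshold, and 17 other iron genes. The block changed no call of a member (Trf −1.83, adjusted p 0.000804 in edgeR). Scalings moved the median of all genes by less than 0.1 on the log2 scale. Heph had no value with a minimum of 10 counts in every library. Heph is limited by its 144 counts, and for ferritin and ferroportin the spread between libraries set the width of the stated intervals.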
